A study of Mus musculus with 3 samples.

Results

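The Slc25 genes encode the mitochondrial carriers, a family of membrane proteins that move nucleotides, phosphate, organic acids, amino acids, cofactors and iron between the mitochondrial matrix and the cytosol. All genes whose symbol in the array annotation begins with Slc25a and a number were taken, which gave 43 of the 20738 named genes. Their RNA was compared in whole proximal jejunum, the stretch of small intestine that follows the duodenum, between mice labelled Sox4 knockout with villin-Cre (Sox4 vilCre KO) and wild-type mice. Villin-Cre is a recombinase active in the intestinal epithelium, so the other cells of the whole tissue keep Sox4. Each of 3 two-colour arrays held total RNA of 1 knockout mouse in Cy5 and wild-type RNA in Cy3. Dyes were not swapped, and the labels used here give neither the age or sex of the mice nor whether the wild-type RNA was pooled. The base of the deposited log ratios is not stated, and base 2 was taken. On that basis every value below is a log2 ratio of Sox4 knockout over wild type, tested against 0 over the 3 arrays, unless another quantity is named.

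Most carriers sit in the inner mitochondrial membrane, which is closed to charged metabolites. Each usually exchanges one metabolite for another and so links a pathway in the matrix to one outside it. In the absorptive epithelium of the small intestine, carriers of glutamate, aspartate and ornithine connect mitochondria to the use of glutamine and the making of citrulline, and others export ATP, pass citrate to lipid synthesis or take in fatty acids bound to carnitine.

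None of the 43 carrier genes passed limma's test at an adjusted p of 0.05, where 0.328% of all named genes did (68 genes, 22 higher and 46 lower, or 0.106% and 0.222%). For 14 carriers (32.6%) the unadjusted p was under 0.05, which held for 26.3% of all named genes. Of these carriers 4 (9.3%) lay above and 10 (23.3%) below 0, where 12.0% and 14.3% of all named genes did so. The mean was above 0 for 23 of the 43 carriers and for 46.4% of all named genes. Ratios were above 0 on all 3 arrays for 11 carriers (25.6%, against 23.2% of all named genes) and below 0 on all 3 for 12 (27.9%, against 27.3%). Means of the carriers ran from -0.56 for Slc25a24 to 0.55 for Slc25a35, with a median of 0.01, where the median of all named genes was -0.03. The size of the mean, taken without its sign, had a median of 0.22 over the carriers and 0.21 over all named genes. The 68 genes that passed all had a size of at least 0.99, which no carrier reached. A size of 1 or more, a 2-fold change in either direction, was found for 1.72% of all named genes and no carrier. For each of the 43 carriers the 95% interval lay between -1 and 1 on the log2 scale. The outermost bounds were -0.97 for Slc25a15 and 0.94 for Slc25a31. If the table held natural logarithms, these bounds would be -1.40 and 1.36 on the log2 scale, and the intervals of 16 carriers would reach a 2-fold change.

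**Figure D1:**
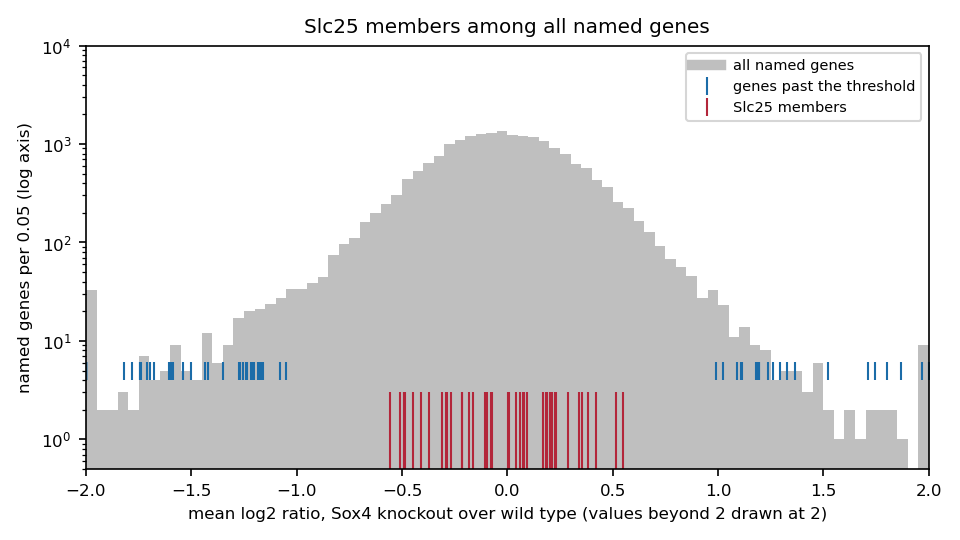
Mean log2 ratio of Sox4 knockout over wild type (x axis) against the number of named genes in each step of 0.05 (y axis, log scale). Grey bars are all 20738 named genes, blue marks the 68 genes past an adjusted p of 0.05 and red marks the 43 Slc25 genes, which lie between -0.56 and 0.55, inside the range where no gene passed.

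Sox4 itself had ratios of -0.66, 0.18 and -0.46 on arrays 1, 2 and 3. These are means of 3 features that differed from each other. One feature had -1.21, -0.72 and -0.93, below wild type on every array, another had -0.82, 0.03 and -0.43, and the other had 0.06, 1.23 and -0.02. The mean for array 2, labelled Sox4 knockout like the others, was thus above 0 while 1 of its features was below 0. Where the features lie relative to the deleted part of the gene is not given in the sources used here. Counts of carriers and partner genes are also given without array 2 where leaving it out moves them by over 1.5 times. All 3 arrays come from 1 slide per the labels. Values of other cell types differed in the same RNA. Of 10 adipocyte markers, 4 fell and all 10 had a mean below 0, with list medians of -1.18, -0.90 and -0.64 on arrays 1, 2 and 3, and adiponectin (Adipoq) at -4.68 ± 0.41 (SD, n = 3). Of 7 erythroid markers, 2 fell and 6 had a mean below 0. Of 9 pancreatic acinar markers none passed, 8 had a mean below 0, and list medians were -0.79, -0.25 and -0.83 on arrays 1, 2 and 3; the trypsin gene Try5 averaged -1.72 ± 0.46 (adjusted p = 0.0504). Of 7 leukocyte markers none passed and 4 had a mean above 0. The Y-linked gene Eif2s3y fell (-7.28 ± 0.25) while the X-inactivation RNA Xist rose (1.71 ± 0.18), both on every array, so sex and genotype cannot be told apart for any ratio given here. Of 16 epithelial markers none passed, 9 had a mean above 0 and 7 below, and array medians were 0.05, 0.18 and -0.02. Ratios do not show whether a marker is present, so the labelled tissue could not be checked by levels. The part of these cell types in the carriers' ratios was not tested. In whole tissue, fewer cells of a type and less RNA per cell cannot be told apart. Without array 2, the unadjusted p was under 0.05 for 6 carriers (14.0%), against 22.1% of all named genes. Of these carriers 1 (2.33%) lay above and 5 (11.6%) below 0, where 10.2% and 11.9% of all named genes did so.

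**Figure D2:**
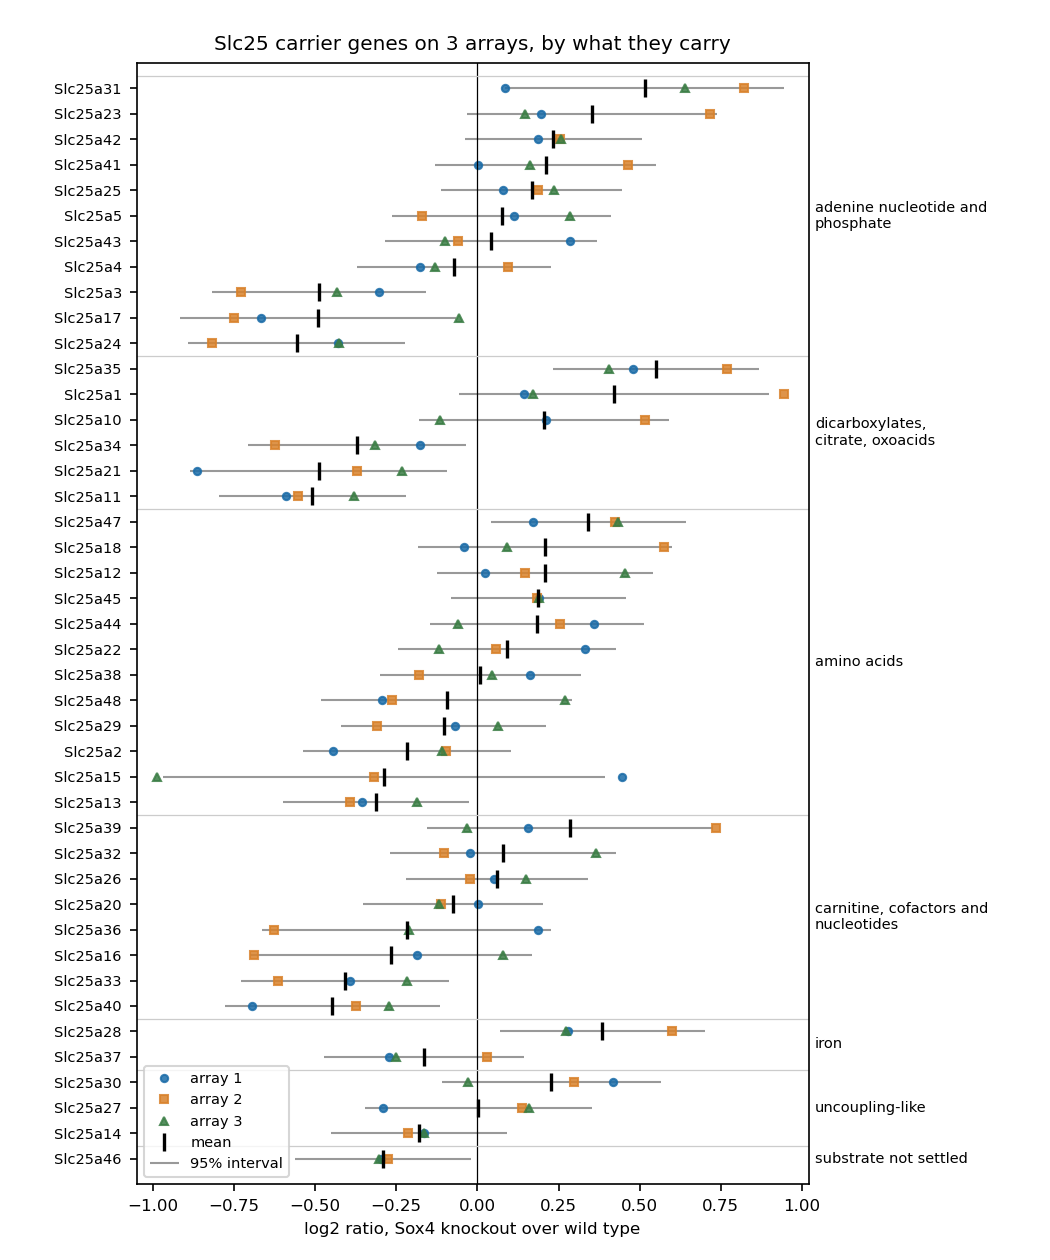
Log2 ratios of Sox4 knockout over wild type (x axis) for the 43 Slc25 genes (y axis), grouped by the substrates assigned to them here. Coloured points are the 3 arrays, black bars the means and grey lines the 95% intervals of limma's test. Single ratios run from -0.99 to 0.94, and every interval lies between -1 and 1.

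Of the 4 carriers with the smallest p among those with 1 promoter entry in the RefSeq table, the 250 bases before the start are shown, since these are the members nearest to the threshold. All 4 had ratios below 0 on every array. Slc25a35 has no entry. Sequences come from RefSeq, build GRCm38.p6, and run 5′ to 3′ on the strand of the gene. Capitals mark the letters TGCGCA, the centre of the site of NRF-1, a transcription factor known for driving genes of mitochondrial proteins.
Slc25a11, chr11:70647040-70647289, minus strand: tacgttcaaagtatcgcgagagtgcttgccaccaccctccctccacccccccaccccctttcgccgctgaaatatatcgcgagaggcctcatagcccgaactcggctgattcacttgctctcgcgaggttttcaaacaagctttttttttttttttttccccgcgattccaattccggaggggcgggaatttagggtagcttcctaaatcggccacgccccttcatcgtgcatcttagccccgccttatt
Slc25a24, chr3:109122899-109123148, plus strand: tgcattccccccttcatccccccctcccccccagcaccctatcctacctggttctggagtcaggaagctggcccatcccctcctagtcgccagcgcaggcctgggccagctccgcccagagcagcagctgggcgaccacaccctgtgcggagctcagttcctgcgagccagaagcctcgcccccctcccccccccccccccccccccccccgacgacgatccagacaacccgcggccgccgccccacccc
Slc25a3, chr10:91123968-91124217, minus strand: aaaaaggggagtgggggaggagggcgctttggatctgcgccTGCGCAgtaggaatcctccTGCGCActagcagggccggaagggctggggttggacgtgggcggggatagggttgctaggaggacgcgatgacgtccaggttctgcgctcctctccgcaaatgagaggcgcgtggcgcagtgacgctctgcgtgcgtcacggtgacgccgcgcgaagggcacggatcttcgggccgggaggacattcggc
Slc25a40, chr5:8422588-8422837, plus strand: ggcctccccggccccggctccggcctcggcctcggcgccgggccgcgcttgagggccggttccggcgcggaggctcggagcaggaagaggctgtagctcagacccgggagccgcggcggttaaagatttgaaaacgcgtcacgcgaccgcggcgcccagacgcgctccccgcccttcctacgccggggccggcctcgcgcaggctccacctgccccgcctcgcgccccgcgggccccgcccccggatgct

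The 4 windows had a GC content of 53.2%, 72.8%, 66.4% and 78.0% in the order shown. Promoter entries were found for 34 of the 43 carriers, with 43 starts in all. On either strand, the NRF-1 letters were found before 4 of these 43 starts (9.3%), belonging to Slc25a3, Slc25a21, Slc25a31 and Slc25a36, and before 6.43% of the 32851 starts of the table. The letters ACAAAG or ACAATG, which form a core bound by Sox proteins, were found on either strand before 5 of the 43 starts (11.6%), belonging to Slc25a13, Slc25a21, Slc25a22 and Slc25a29, and before 25.2% of all starts. Of these 4 carriers, Slc25a13 and Slc25a21 had an unadjusted p under 0.05, both below 0, while Slc25a22 and Slc25a29 had means of 0.09 and -0.10. The letters AAGGTCA, part of a site of oestrogen-related receptors, were found before 1 of the 43 starts (2.33%), that of Slc25a34, and before 4.08% of all starts. The motifs do not overlap in the windows shown. A match in such a window is a description of letters and not of a bound site.

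Among the carriers that supply ATP synthesis, Slc25a3 brings phosphate into the matrix and the ADP/ATP carriers exchange ATP for ADP. Slc25a3 had ratios of -0.30, -0.73 and -0.43 on arrays 1, 2 and 3. All 3 lay below 0, with a mean of -0.49 ± 0.22 (1.40-fold lower, adjusted p = 0.107), and both of its features were below 0 on every array. Slc25a4, the ADP/ATP carrier best known from heart and muscle, had -0.18, 0.09 and -0.13, and Slc25a5, the form of most dividing cells, had 0.11, -0.17 and 0.28. Both genes had ratios on either side of 0, with means of -0.07 ± 0.14 and 0.08 ± 0.23. Array 2 stood apart in opposite directions for the pair, as the highest value of Slc25a4 and the lowest of Slc25a5. Slc25a5 rests on 1 feature, and copies similar to it exist in the mouse genome as pseudogenes, so its signal could hold RNA of a near relative. The testis form Slc25a31 had 0.09, 0.82 and 0.64, all above 0, with a mean of 0.52 ± 0.38 (adjusted p = 0.143). Smooth muscle markers, none of 8 of which passed, had list medians of -0.34, 0.12 and -0.47 on arrays 1, 2 and 3, with array 2 highest as for Slc25a4; their part in its ratio was not tested.

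The 10 features of Slc25a4 show how far features of 1 gene spread on 1 array. On array 1 they ran from -0.34 to -0.02 (SD 0.12), on array 2 from 0.04 to 0.17 (SD 0.04), and on array 3 from -0.31 to 0.00 (SD 0.10). All 10 features of array 2 lay above those of arrays 1 and 3, which overlapped each other. Since these features are annotated to 1 transcript and lie on 1 array, their spread says nothing of the spread between mice. Other genes had less even features. Whether features of 1 gene share a sequence is not given in the sources used here, so these spreads may not be alike in kind. Slc25a37 had -0.67 and 0.17 for its 2 features on array 3, and Slc25a33 had -0.52 and 0.08 there. Of the 43 carriers, 35 rest on 1 feature and 7 on 2.

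**Figure D3:**
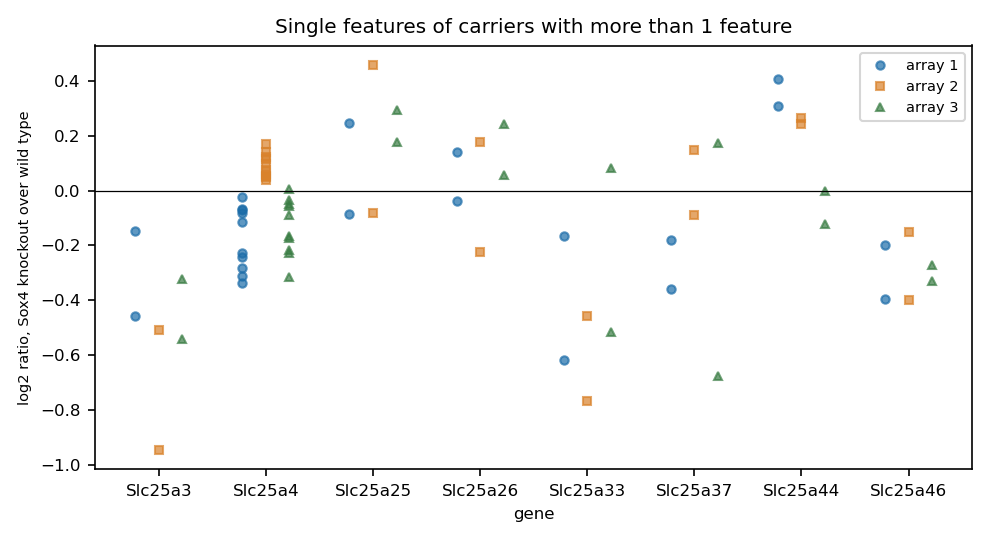
Log2 ratio of Sox4 knockout over wild type (y axis) of each single feature for the 8 Slc25 genes with more than 1 feature (x axis), coloured by array. The 10 features of Slc25a4 lie from 0.04 to 0.17 on array 2 and from -0.34 to 0.00 on arrays 1 and 3, while the 2 features of Slc25a37 are 0.85 apart on array 3.

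The ATP-Mg carriers exchange ATP-Mg for phosphate and set the total of adenine nucleotides in the matrix. Slc25a24 had -0.43, -0.82 and -0.43 on arrays 1, 2 and 3, all below 0, and its mean of -0.56 ± 0.23 (1.47-fold lower, adjusted p = 0.0914) was the lowest of any carrier. Its relative Slc25a23 had 0.20, 0.72 and 0.15, all above 0, with a mean of 0.35 ± 0.32 (adjusted p = 0.216). Slc25a25 had 0.08, 0.19 and 0.24 (mean 0.17 ± 0.08). Its 2 features averaged 0.33 and 0.00, the latter below 0 on arrays 1 and 2. Slc25a41 averaged 0.21 ± 0.24. The members of this subgroup thus stood on both sides of 0, and array 2 held the outermost ratio of Slc25a24, Slc25a23 and Slc25a41. Slc25a17, which carries coenzyme A and related cofactors in peroxisomes, had -0.67, -0.75 and -0.06, a mean of -0.49 ± 0.38 (adjusted p = 0.153). The array 3 ratio of Slc25a17 was near 0. Slc25a42, a carrier of coenzyme A, averaged 0.23 ± 0.04 and Slc25a43 0.04 ± 0.21. Of the 11 carriers in the nucleotide and phosphate list, none passed, and the unadjusted p was under 0.05 for 1 above and 3 below 0 (36.4%, against 26.3% of all named genes). Without array 2 these counts were 0 above and 2 below (18.2%, against 22.1% of all named genes).

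Carriers of organic acids held the members with the smallest p. Slc25a11, which exchanges oxoglutarate for malate in the malate-aspartate shuttle, had -0.59, -0.55 and -0.38 on arrays 1, 2 and 3. These lay close together and all below 0, with a mean of -0.51 ± 0.11 (1.42-fold lower, 95% interval -0.80 to -0.22, adjusted p = 0.0860). Slc25a35, whose relative in yeast carries oxaloacetate, had 0.48, 0.77 and 0.41, all above 0, with a mean of 0.55 ± 0.19 (1.46-fold higher, 95% interval 0.23 to 0.87, adjusted p = 0.0876). Its close relative Slc25a34 had -0.18, -0.62 and -0.32, all below 0, with a mean of -0.37 ± 0.23 (adjusted p = 0.163). Slc25a21, the oxodicarboxylate carrier of lysine breakdown, had -0.86, -0.37 and -0.23, and its mean of -0.49 ± 0.33 had an adjusted p of 0.138. The low ratio on array 1 set its spread. Slc25a1, which exports citrate for lipid synthesis, had 0.14, 0.94 and 0.17. All 3 were above 0 with array 2 far from the others, and the mean was 0.42 ± 0.45 over the 3 arrays and 0.16 without array 2. Slc25a10, the dicarboxylate carrier, had 0.21, 0.52 and -0.12, on both sides of 0. In this list of 6 carriers none passed, and the unadjusted p was under 0.05 for 1 above and 3 below 0 (66.7%, against 26.3% of all named genes).

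Carriers of amino acids included those of citrulline synthesis. Slc25a15, which exchanges ornithine for citrulline, had 0.44, -0.32 and -0.99 on arrays 1, 2 and 3. This was the widest range of any carrier, 1.43, and the 95% interval of its mean of -0.29 ± 0.72 ran from -0.97 to 0.39. Its relative Slc25a2 averaged -0.22 ± 0.20. The aspartate/glutamate carriers of the malate-aspartate shuttle differed in sign. Slc25a13 (citrin) had -0.35, -0.39 and -0.19, all below 0, with a mean of -0.31 ± 0.11 (adjusted p = 0.168). Slc25a12 (aralar) had 0.02, 0.15 and 0.46, all above 0, with a mean of 0.21 ± 0.22 (adjusted p = 0.359). The glutamate carriers Slc25a22 and Slc25a18 had means of 0.09 ± 0.23 and 0.21 ± 0.32, and Slc25a22 had 0.33, 0.06 and -0.12 on the arrays. Slc25a38, a glycine carrier needed for haem synthesis, had 0.16, -0.18 and 0.04, with a mean of 0.01 ± 0.17. Slc25a47 had 0.17, 0.42 and 0.43, all above 0, with a mean of 0.34 ± 0.15 (adjusted p = 0.156). Slc25a45 had 0.19, 0.18 and 0.19, the smallest spread of any carrier, at a mean of 0.19 (adjusted p = 0.316). Slc25a44, a carrier of branched-chain amino acids, averaged 0.18 ± 0.22, Slc25a29, a carrier of basic amino acids, -0.10 ± 0.19, and Slc25a48 -0.10 ± 0.32. Slc25a47 and Slc25a48 were counted in this list, and whether they carry amino acids was not checked here. Of the 12 carriers listed none passed. The unadjusted p was under 0.05 for 1 above and 1 below 0 (16.7%, against 26.3% of all named genes). Without array 2 it was under 0.05 for none of the 12, against 22.1% of all named genes.

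Among carriers of cofactors, nucleotides and carnitine, Slc25a40, which takes glutathione into mitochondria together with its relative Slc25a39, had -0.69, -0.38 and -0.27, all below 0 (mean -0.45 ± 0.22, adjusted p = 0.121). Slc25a39 averaged 0.29 ± 0.40. Slc25a33, a pyrimidine nucleotide carrier, had -0.39, -0.61 and -0.22, all below 0 (mean -0.41 ± 0.20, adjusted p = 0.133). Its 2 features averaged -0.63 and -0.18, the latter at 0.08 on array 3. The other pyrimidine nucleotide carrier, Slc25a36, had 0.19, -0.63 and -0.21, on both sides of 0 (mean -0.22 ± 0.41). Slc25a20, which carries acylcarnitines into mitochondria for fatty acid oxidation, had 0.00, -0.11 and -0.12. Its mean of -0.08 ± 0.07 had a 95% interval of -0.35 to 0.20. The carrier of S-adenosylmethionine, the methyl donor of DNA methylation, is Slc25a26, and it averaged 0.06 ± 0.09 (95% interval -0.22 to 0.34). Slc25a32, which serves folate or flavin transport, averaged 0.08 ± 0.25, and Slc25a16 -0.27 ± 0.39. Of these 8 carriers none passed. The unadjusted p was under 0.05 for 2 (25.0%, against 26.3% of all named genes), both below 0. Without array 2 this held for 1 (12.5%, against 22.1% of all named genes).

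The mitoferrins carry iron into mitochondria for haem and iron-sulfur clusters. Slc25a28 (mitoferrin-2), found in many tissues, had 0.28, 0.60 and 0.27, all above 0, with a mean of 0.38 ± 0.19 (adjusted p = 0.140). Slc25a37 (mitoferrin-1), known best from red cell precursors, had -0.27, 0.03 and -0.25, with a mean of -0.16 ± 0.17 (adjusted p = 0.426). Erythroid markers had list medians of -1.51, -1.27 and -0.79 on the same arrays. Among these markers, the haem synthesis gene Alas2 of red cell precursors averaged -1.14 ± 0.44 (adjusted p = 0.0648). The part of the erythroid markers in the ratio of Slc25a37 was not tested. Carriers similar to uncoupling proteins gave means of 0.23 ± 0.23 for Slc25a30, 0.00 ± 0.25 for Slc25a27 and -0.18 ± 0.03 for Slc25a14. Slc25a46, which lies in the outer membrane and acts in mitochondrial shape, had -0.30, -0.28 and -0.30, all below 0 and nearly equal (mean -0.29 ± 0.01, adjusted p = 0.171). Its 2 features were below 0 on every array.

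Of the X-linked carriers Slc25a5, Slc25a14 and Slc25a43, none had an unadjusted p under 0.05, against 26.3% of all named genes. Their means ran from -0.18 to 0.08.

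Carriers of like function were set against each other by the difference of their ratios within each array. The 11 pairs were chosen after their values were seen, so the differences are a description with no test. In 8 of them the 2 carriers had means of opposite sign. Among the 43 carriers, 23 means were above 0 and 20 below. Slc25a24 was paired both with Slc25a23 and with Slc25a25, so the pairs are not independent. Slc25a35 minus Slc25a34 was 0.66, 1.39 and 0.72 on arrays 1, 2 and 3. Slc25a23 minus Slc25a24 was 0.62, 1.53 and 0.57. The differences were positive on every array, and array 2 was the largest in both pairs. Slc25a28 minus Slc25a37 was 0.55, 0.57 and 0.52, with a mean of 0.55 ± 0.02, although the ratios of each gene alone varied more. This evenness holds for the average of the 2 features of Slc25a37, which differed. One had -0.36, 0.15 and -0.67 on arrays 1, 2 and 3, and the other -0.18, -0.09 and 0.17. Slc25a12 minus Slc25a13 was 0.38, 0.54 and 0.64. In 7 of the 11 pairs the difference had 1 sign on all arrays. Slc25a5 minus Slc25a4 (mean 0.15 ± 0.36) and Slc25a2 minus Slc25a15 (mean 0.07 ± 0.90) changed sign between arrays.

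**Figure D4:**
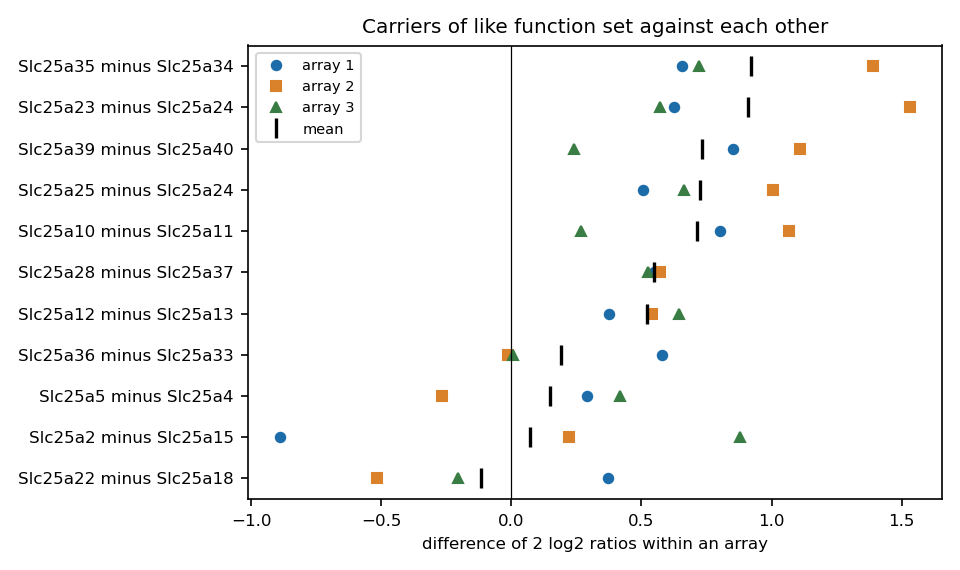
Difference of the log2 ratios of 2 related carriers within each array (x axis) for 11 pairs (y axis), with points for the 3 arrays and black bars for the means. Slc25a28 minus Slc25a37, where Slc25a37 is the mean of 2 features that differed, lies between 0.52 and 0.57 on all arrays. Slc25a2 minus Slc25a15 runs from -0.89 to 0.88.

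The arrays resembled each other over the carriers to different degrees. Across the 43 carriers, which share the arrays and are not independent, Pearson's r was 0.61 between arrays 1 and 2, 0.59 between arrays 2 and 3 and 0.31 between arrays 1 and 3. Over all named genes these were 0.43, 0.41 and 0.57, so arrays 1 and 3 were the least alike over the carriers and the most alike over all genes. Array 2 held the ratio farthest from 0 for 20 carriers (46.5%), as it did for 40.4% of all named genes. The SD over the carriers was 0.48 on array 2 and 0.33 and 0.30 on arrays 1 and 3, and over all named genes it was 0.50, 0.47 and 0.46 in the same order.

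Genes that work with the carriers were taken from 10 lists of 90 genes, of which 83 were measured. None passed over all named genes in limma's test, in either direction. The unadjusted p was under 0.05 for 22 of them (26.5%), 12 above and 10 below 0, against 26.3% of all named genes. Without array 2 this held for 14 (16.9%), 7 above and 7 below 0, against 22.1% of all named genes. Carriers of the same family under other symbols were Ucp2, an uncoupling protein, with 0.35, 1.11 and 0.27 (mean 0.57 ± 0.46, adjusted p = 0.146), Ucp3 at 0.18 ± 0.42, and the outer membrane proteins Mtch2 at -0.25 ± 0.13 and Mtch1 at 0.06 ± 0.13. Array 2 was far above the others for Ucp2, whose mean without it was 0.31. Slc25a51, a carrier of NAD, and Slc25a53 stand in the array annotation as Mcart1 and Mcart6 and so are not among the 43; they averaged -0.17 ± 0.08 and 0.15 ± 0.17.

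Carriers reach the inner membrane through the outer membrane translocase and small chaperones between the membranes. Of 13 import genes 2 (15.4%, against 26.3% of all named genes) had an unadjusted p under 0.05 with all arrays. Both lay below 0, the receptor gene Tomm20 (-0.43 ± 0.21) and the chaperone gene Timm10b (-0.35 ± 0.16). Without array 2 the unadjusted p was under 0.05 for no import gene, against 22.1% of all named genes. The translocase gene Timm22, which inserts carriers, averaged 0.04 ± 0.02, and the pore gene Tomm40 had 0.70, 0.61 and -0.04. The outer membrane channels Vdac1, Vdac2 and Vdac3 were below 0 on every array, at -0.16 ± 0.06, -0.20 ± 0.05 and -0.23 ± 0.07, with adjusted p-values of 0.253 or more. Of 14 other inner membrane transporters 2 (14.3%, against 26.3% of all named genes) had an unadjusted p under 0.05. These were the sideroflexin gene Sfxn4 (-0.55 ± 0.11, adjusted p = 0.0793) and the pyruvate carrier gene Mpc1 (-0.31 ± 0.12).

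Enzymes of citrulline, proline and glutamate metabolism, which meet Slc25a15, Slc25a13 and Slc25a22 at the membrane, had a list median of 0.30 over 11 genes, with array medians of 0.20, 0.38 and 0.46. Of these, 6 had an unadjusted p under 0.05 above 0 and 1 below (63.6%, against 26.3% of all named genes), and none passed over all genes. Without array 2 these counts were 4 above and 0 below (36.4%, against 22.1% of all named genes). Aldh18a1, which makes the shared precursor of proline and ornithine, had 1.12, 1.30 and 0.61 (mean 1.01 ± 0.36, adjusted p = 0.0648). The argininosuccinate synthase gene Ass1 had 0.68, 0.70 and 0.46 (mean 0.61 ± 0.14, adjusted p = 0.0740). Nags, whose product activates carbamoyl phosphate synthesis, averaged 0.49 ± 0.13, and the proline synthesis gene Pycr1 0.58 ± 0.29. All 4 were above 0 on every array, whereas the carrier Slc25a15 between these enzymes was not. The arginase gene Arg2 averaged -0.36 ± 0.20 and the ornithine transcarbamylase gene Otc -0.11 ± 0.19.

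In the malate-aspartate and glycerol phosphate shuttles, 1 of 6 genes (16.7%, against 26.3% of all named genes) had an unadjusted p under 0.05. This was the mitochondrial malate dehydrogenase gene Mdh2 at 0.60, 0.46 and 0.61 (mean 0.56 ± 0.08, adjusted p = 0.0773). It was above 0 on every array while Slc25a11 of the same shuttle was below 0 on every array. Got1 and Got2, the cytosolic and mitochondrial aspartate transaminases, averaged -0.19 ± 0.10 and 0.16 ± 0.15. Genes of the carnitine shuttle and the first steps of fatty acid oxidation numbered 8. The unadjusted p was under 0.05 for 2 (25.0%, against 26.3% of all named genes), both below 0. These were Acadvl (-0.59 ± 0.18, adjusted p = 0.0812) and Cpt1b (-0.30 ± 0.11). Without array 2 this held for 1 of the 8 (12.5%, against 22.1% of all named genes).

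Of 7 genes of one-carbon units in and outside mitochondria, 3 (42.9%, against 26.3% of all named genes) had an unadjusted p under 0.05, all above 0. The serine hydroxymethyltransferase gene Shmt2 had 0.82, 0.66 and 0.52 (mean 0.67 ± 0.15, adjusted p = 0.0687), Mthfd2 averaged 0.70 ± 0.48 and the thymidylate synthase gene Tyms 0.34 ± 0.05. Proliferation markers had array medians of 0.65, 0.40 and 0.62, with 7 of 8 means above 0, and 12 reference genes had array medians of 0.31, 0.19 and 0.26; their part in these ratios was not tested. Among 7 enzyme genes listed around citrate and fatty acid synthesis, 3 (42.9%, against 26.3% of all named genes) had an unadjusted p under 0.05. Of these 1 lay above 0 and 2 below. The malic enzyme gene Me1 had -2.72, 0.17 and -1.65, and the isocitrate dehydrogenase gene Idh1 -0.38, -0.60 and -1.69. Me1 was not below 0 on array 2, and its mean without that array was -2.19. Of 9 genes of haem and iron-sulfur assembly, Alas2 was the 1 with an unadjusted p under 0.05 (11.1%, against 26.3% of all named genes).

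**Figure D5:**
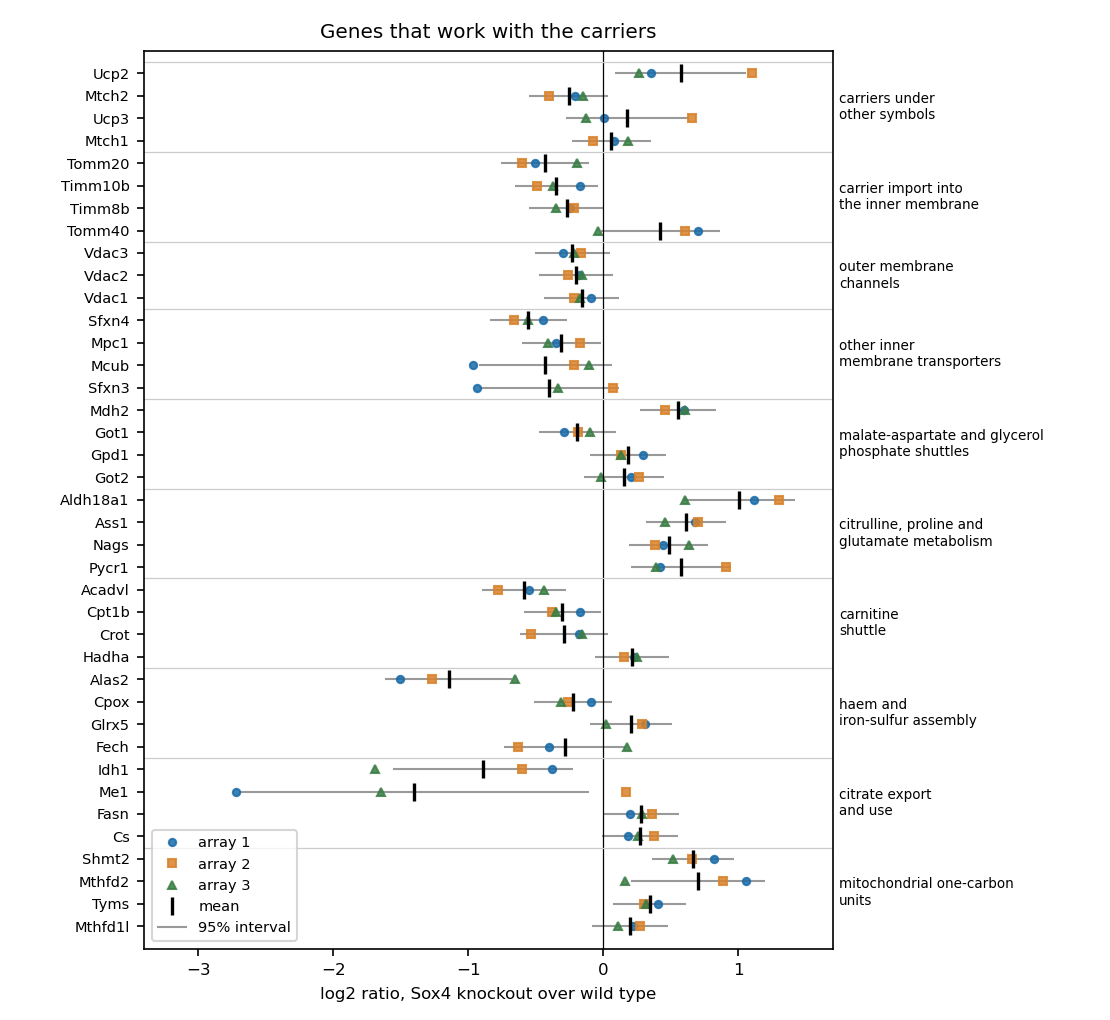
Log2 ratios of Sox4 knockout over wild type (x axis) for up to 4 genes with the smallest p in each of 10 lists of genes that work with the carriers (y axis). Coloured points are the 3 arrays, black bars the means and grey lines the 95% intervals. Aldh18a1 has a mean of 1.01 and Me1 runs from -2.72 to 0.17, and none of the genes drawn passed the test over all named genes.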

How the data were processed

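The authors deposited 1 table of log ratios, read here as log2, with 62976 features on each of 3 arrays and no missing value. How background was corrected, how values were normalized or filtered, and which log base and direction apply is not given in the sources used here. Single ratios ran from -7.44 to 5.62, too wide for base 10. Base 2 was taken, and with natural logarithms every log2 value would be 1.443 times as large, with the same p-values. Knockout over wild type follows the dyes in the labels, and every sign would be the opposite in a table of Cy3 over Cy5. Array medians were 0.007, 0.003 and 0.011, and the ratios were left unscaled. Features near background could not be removed, as intensities are not used here. Precision is limited by the 3 arrays.

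The 31465 features with 1 symbol in the platform annotation were renamed by accession, then symbol, then synonym, through a RefSeq table of GRCm38.p6 used for names and chromosomes, and averaged per gene. Accessions named 29050 of them, current symbols 2061 and synonyms 349, while 5 stayed as annotated and 31511 further features are unnamed here. The 59 features of the 43 carriers kept their symbols. Each mean was tested against 0 with limma 3.58.1 (R 4.3.3, lmFit and eBayes, 2 residual and 3.51 prior degrees of freedom), two-sided, with Benjamini-Hochberg adjustment over all 20738 genes. Whether the spread among wild-type mice enters this test is not known, as the labels do not say if their RNA was pooled. Dye and genotype cannot be told apart for any gene. The fit was tested on simulated data with independent normal errors. These held no dye effect and no shared wild-type RNA, so the simulation does not bear on either. Tables were made with pandas 2.3.3 and numpy 2.4.6 in Python 3.11.15, and figures with matplotlib 3.10.9.

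The carriers and lists were chosen with earlier results of these data known. Values on each array are given for the 15 carriers with the smallest p, for 16 with known roles or high abundance, and for the 3 with the widest range, which made 28 in all; others are given by their mean. Of partner and marker lists, up to 4 genes with the smallest p are named; Timm22, Arg2 and Otc were chosen after their values were seen. Leaving out each array, centring, quantile normalization, other summaries of features, other names, all features in the fit and robust eBayes were tried as alternatives.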

Additional observations from a re-analysis of the deposited data

How the results depend on the processing

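No carrier and no partner gene passed limma's test under any of the 10 alternatives, which left out each array in turn, removed array medians, quantile-normalized the arrays, took the median or the middle feature, kept the platform's symbols, put all features in the fit or used robust eBayes. The smallest adjusted p of any carrier was between 0.0771 and 0.243 over them. With 2 arrays the count of all genes past the threshold was 4 (array 3 left out), 10 (array 1 left out) and 66 (array 2 left out), against 68 with all arrays. The count of carriers with an unadjusted p under 0.05 was between 6 and 8, against 14 with all arrays. This count was 18.6%, 14.0% and 18.6% of the carriers without arrays 1, 2 and 3, where all genes had 15.8%, 22.1% and 18.7%. The carriers' median ran from -0.030 to 0.025 over these 3 settings. With all 62976 features in the fit, 325 features passed, the median over the 59 carrier features was -0.032, and 14 of these had an unadjusted p under 0.05; the cause was not tested. Of 252 values of 28 carriers recomputed, 247 kept their sign. The other 5 came from leaving out array 1 or 3. With 1 array left out, the mean ran from -0.030 to 0.198 for Slc25a5, from -0.652 to 0.064 for Slc25a15, from -0.030 to 0.195 for Slc25a22 and from -0.068 to 0.103 for Slc25a38, which was -0.008 without array 3. Each ratio already sets knockout against wild-type RNA within its array, and the test against 0 uses these ratios. Whether mice are paired by this is not known, as the labels do not say if the wild-type RNA was pooled. With 1 group no pairing could be added. Intervals that reached 0.33 to either side of the mean, at the median carrier, limit what 3 arrays could show for a single carrier.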
